A study of Mus musculus with 9 samples.

Results

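The measurements describe 10 regulators of undifferentiated spermatogonia, chosen by gene symbol from the 53801 genes of the count table by a rule that holds no values, with earlier results of these data known. Relative to all genes, 5 of the 10 (Sall4, Foxo1, Pax7, Utf1 and Lin28a) were higher in MU and in OE than in 4OHT. On that scale 3 (Zbtb16, Nanos2 and Nanos3) were lower, and Id4 and Eomes did not pass the test. Of all genes tested, 29.5% were called higher and 26.5% lower in MU, and 29.9% and 27.9% in OE. Relative to germ cell markers, the median of all genes moved by -0.79 in MU and -0.87 in OE, with 62.6% and 67.0% called lower. Zbtb16, Nanos2 and Nanos3, already lower, could only fall further by this shift and kept their call. Foxo1 and Lin28a stayed called higher, within the range of the markers themselves. Id4 was called lower. Sall4 and Eomes changed sign without a call, and the calls of Sall4 and Pax7, and of Utf1 in OE, were lost. None of the 10 passed the test between MU and OE, where 3.17% of all genes did and Prmt5 mRNA was 7.36-fold apart. Undifferentiated spermatogonia are the cells of the male germ line that include the stem cells, and a network of transcription factors and RNA-binding proteins holds them in that state. 7 of the genes encode transcription regulators (Zbtb16, Sall4, Foxo1, Pax7, Id4, Utf1 and Eomes), and the other 3 encode proteins that act on RNA (Lin28a, Nanos2 and Nanos3). Several of these proteins also work outside the germ line, among them FOXO1 in metabolic tissues, PAX7 in muscle satellite cells, and ID4 in the nervous system.

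RNA was sequenced from cultured mouse spermatogonial stem cells (SSCs) in 3 groups of 3 libraries, named 4OHT, MU and OE. The cells carry Prmt5 flox/flox and Rosa26-CreERT2, a tamoxifen-inducible Cre driven from a widely expressed locus, and 4-hydroxytamoxifen at 1 µM removes Prmt5, the gene of an arginine methyltransferase. MU was read as knockout cells given catalytically dead PRMT5 (E444Q) and OE as knockout cells given PRMT5 (WT), while 4OHT was read as knockout cells without a construct. The labels do not spell out MU or OE and do not say whether the 3 libraries of a group came from separate cultures, so p-values measure the spread between libraries, which may be technical. All groups thus share the knockout treatment, and ethanol-treated cells with intact Prmt5 were not analysed here. The study's methods describe SSC cultures on mitomycin-treated mouse embryonic fibroblasts and do not say whether these feeder cells were removed before RNA extraction.

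Prmt5 measured 31.9, 30.8 and 28.2 CPM (counts scaled to library size, with TMM factors) in 4OHT, 145, 147 and 146 CPM in MU, and 1072, 1071 and 1085 CPM in OE. The groups did not overlap, with 4OHT the lowest, and the labels set no order between MU and OE, with reads of the construct and of the endogenous gene counted together. Library totals were 78751996 to 95370711 counts in 4OHT, 192033300 to 365719548 in MU and 79941857 to 154557863 in OE, at about 4 counts per read pair. Every MU library was thus deeper than every other library. The members' own counts ranged from 100 to 132913. Germ cell markers were present in every library, and the 10 of the list summed to 1951 to 2021 CPM in 4OHT, 3336 to 3449 CPM in MU and 3613 to 3652 CPM in OE. The 12 fibroblast markers summed to 9554 to 11606, 5293 to 5374 and 4156 to 4241 CPM. For 9 macrophage markers the sums were 172 to 187, 1099 to 1131 and 2164 to 2283 CPM. Against 4OHT, 7 of these 9 were called higher and 2 (C1qa and C1qb) lower, in MU as in OE. The 8 Sertoli cell markers, led by Sox9 and Kitl, summed to 53.0 to 55.8, 29.5 to 30.7 and 23.2 to 26.4 CPM. Amh was at or under 1 CPM in every library. Against 4OHT, 5 of the 8 were called lower and 2 (Gata4 and Wt1) higher, in MU as in OE. Of 6 Leydig cell markers, 5 were at or under 1 CPM in every library, and Hsd3b1 and Lhcgr were at 0 throughout. These sums move with the comparisons against 4OHT, and their part in the members' changes was not tested. In such bulk RNA, fewer cells of a type and less RNA per cell cannot be told apart.

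The promoters of 8 of the 10 genes were in the RefSeq table of start-site windows (GRCm38.p6, 250 bases before and 50 from the start), while Zbtb16 and Sall4 were not matched. 4 are shown because they span the members' directions, with Foxo1 and Lin28a higher in MU and OE than in 4OHT, and Nanos2 and Nanos3 lower. Capitals mark every CG dinucleotide, the site of most DNA methylation in mammals.
Foxo1: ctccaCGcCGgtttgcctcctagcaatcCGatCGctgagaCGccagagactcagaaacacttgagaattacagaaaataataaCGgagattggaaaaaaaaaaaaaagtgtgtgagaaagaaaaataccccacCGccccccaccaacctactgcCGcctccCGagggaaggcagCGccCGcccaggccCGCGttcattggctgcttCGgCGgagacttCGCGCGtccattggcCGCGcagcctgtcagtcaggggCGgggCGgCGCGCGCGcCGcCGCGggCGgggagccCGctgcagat
Lin28a: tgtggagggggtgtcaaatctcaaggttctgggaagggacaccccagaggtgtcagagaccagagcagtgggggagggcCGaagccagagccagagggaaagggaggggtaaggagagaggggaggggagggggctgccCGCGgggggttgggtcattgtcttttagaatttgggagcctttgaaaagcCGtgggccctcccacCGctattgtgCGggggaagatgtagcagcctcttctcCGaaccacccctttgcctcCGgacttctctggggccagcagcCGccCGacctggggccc
Nanos2: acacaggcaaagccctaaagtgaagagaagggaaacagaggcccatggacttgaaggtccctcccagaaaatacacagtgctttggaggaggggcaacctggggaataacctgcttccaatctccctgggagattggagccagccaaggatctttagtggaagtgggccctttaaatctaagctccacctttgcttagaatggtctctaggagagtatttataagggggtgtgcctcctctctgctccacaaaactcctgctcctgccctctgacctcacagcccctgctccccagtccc
Nanos3: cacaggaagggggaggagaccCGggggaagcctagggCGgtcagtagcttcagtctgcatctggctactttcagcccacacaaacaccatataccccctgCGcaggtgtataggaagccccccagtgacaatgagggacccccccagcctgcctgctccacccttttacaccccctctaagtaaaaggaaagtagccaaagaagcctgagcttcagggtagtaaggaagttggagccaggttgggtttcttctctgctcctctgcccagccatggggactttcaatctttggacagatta
The Foxo1 window lies at chr3:52268087-52268386 on the plus strand and holds 31 CG dinucleotides. Lin28a, at chr4:134018767-134019066 on the minus strand, holds 10. Nanos2, at chr7:18987274-18987573 on the plus strand, holds 0, as do 5.43% of all 32851 windows. Nanos3, at chr8:84176503-84176802 on the minus strand, holds 3, fewer than the median window with 7. Id4 had 39, Pax7 and Utf1 had 17 each, and Eomes had 10, so that Nanos2 and Nanos3 held the fewest CG dinucleotides of these 8 windows. The RefSeq start of Nanos3 lies 8665 bases inside the gene as GENCODE places it, so its window is not at that gene's outermost start, while the other 7 starts lie within 560 bases of it.

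Short motifs were searched on both strands of the 8 windows. The GC box GGGCGG was in 6 of the 8 (5 matches each in Foxo1 and Id4, 4 in Utf1, and 1 each in Lin28a, Pax7 and Nanos3) and in 35.7% of all windows. The E-box CANNTG, the site of the E proteins that ID4 restrains, was in Foxo1 and Nanos3, and in 72.3% of all windows. TATAAA was in Nanos2, where it lies on the strand opposite to the gene, and in 13.6% of all windows. GTAAACA, a FOXO-type motif, was in 0 of the 8 and in 3.65% of all windows. These matches describe letters in the windows, not bound sites.

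All 10 members passed the filter on low counts. In MU against 4OHT, 8 of the 10 passed an adjusted p of 0.05 in edgeR's quasi-likelihood test, against 56.0% of the 22452 genes tested. In OE against 4OHT it was also 8 of 10, against 57.8% of genes. Of the members, 5 were called higher in each comparison (background 29.5% in MU and 29.9% in OE) and 3 lower (26.5% and 27.9%). With 10 genes, these shares lie near a background in which most genes were called. The same 8 members had 4OHT libraries that did not overlap those of MU or OE, against 63.9% and 61.6% of genes. Both comparisons use the same 4OHT libraries and are therefore not independent.

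**Figure D1:**
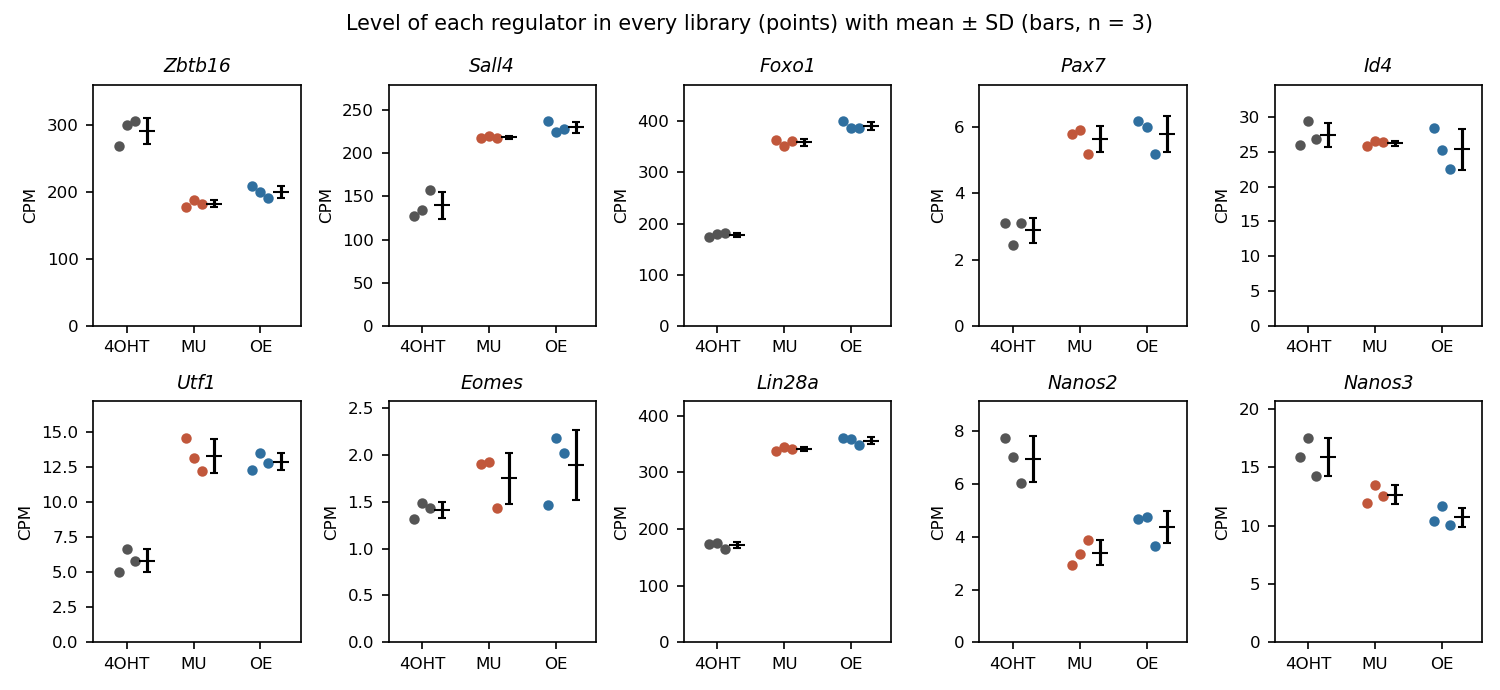
CPM (TMM-scaled, linear axis from 0) of the 10 regulators in every library, with 1 point per library in the groups 4OHT, MU and OE, and bars for the mean ± SD (n = 3). Lin28a was at 165 to 175 CPM in 4OHT and 337 to 361 CPM in the other 6 libraries, while the groups of Id4 overlapped.

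Zbtb16 (ENSMUSG00000066687, GRCm38 chr9:48654297-48836222, minus strand) encodes PLZF, a zinc finger repressor needed for stem cell maintenance in the testis. It measured 269, 299 and 305 CPM in 4OHT, 178, 188 and 182 CPM in MU, and 209, 200.0 and 190.4 CPM in OE. Every 4OHT library lay above every other library, and those of MU lay below those of OE. The log2 fold change was -0.67 in MU against 4OHT (SE 0.0567, edgeR adjusted p = 1.97e-07) and -0.54 in OE against 4OHT (SE 0.0567, adjusted p = 1.55e-06).

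Sall4 (ENSMUSG00000027547, chr2:168748332-168767943, minus strand) is a zinc finger factor whose protein binds PLZF. Its levels were 127, 134 and 157 CPM in 4OHT, 217, 220.0 and 218 CPM in MU, and 237, 225 and 228 CPM in OE. The 4OHT libraries were the lowest, opposite to Zbtb16. Relative to all genes, Sall4 rose by 0.65 on the log2 scale in MU (SE 0.0655, edgeR adjusted p = 1.31e-06) and by 0.72 in OE (SE 0.0657, adjusted p = 3.99e-07). Both calls were lost relative to germ cell markers (-0.15 in MU, -0.16 in OE). The ratio of Zbtb16 to Sall4, each per exonic kilobase, does not depend on how libraries are scaled. It was 2.196 ± 0.147 in 4OHT, 0.877 ± 0.0194 in MU and 0.911 ± 0.0297 in OE (mean ± SD, n = 3), with 4OHT apart from both (exact permutation p = 0.1 each, the smallest that 3 against 3 allows).

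Foxo1 (ENSMUSG00000044167, chr3:52268336-52353221, plus strand) encodes the forkhead factor that PI3K and AKT signalling moves out of the nucleus. Its 4OHT libraries held 173, 179 and 181 CPM, its MU libraries 363, 351 and 361 CPM, and its OE libraries 399.6, 386 and 386 CPM. Each of the 6 libraries with a construct lay above every 4OHT library, and those of OE were above those of MU. The log2 fold change was 1.01 in MU (SE 0.0433, edgeR adjusted p = 2.4e-10) and 1.14 in OE (SE 0.0435, adjusted p = 6.04e-11).

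Utf1 (ENSMUSG00000047751, chr7:139943789-139945112, plus strand) encodes a chromatin-associated protein of early undifferentiated spermatogonia. It measured 5.01, 6.66 and 5.79 CPM in 4OHT, 14.6, 13.1 and 12.2 CPM in MU, and 12.3, 13.5 and 12.8 CPM in OE. MU and OE overlapped each other, and both lay above 4OHT. Relative to all genes, its log2 fold change of 1.19 in MU (SE 0.112, edgeR adjusted p = 6.1e-07) was the largest of the 10 genes, and that in OE was 1.14 (SE 0.113, adjusted p = 8.99e-07). The call in OE was lost relative to germ cell markers.

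Pax7 (ENSMUSG00000028736, chr4:139737062-139833528, minus strand), a paired-box factor of a rare subset of spermatogonia, was expressed at low levels. Its values were 3.11, 2.45 and 3.09 CPM in 4OHT, 5.80, 5.89 and 5.19 CPM in MU, and 6.17, 6.01 and 5.17 CPM in OE. Again 4OHT was the lowest group without overlap. Relative to all genes, Pax7 rose by 0.96 in MU (SE 0.135, edgeR adjusted p = 2.93e-05) and by 1.00 in OE (SE 0.136, adjusted p = 2.12e-05) on the log2 scale, and both calls were lost relative to germ cell markers.

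Id4 (ENSMUSG00000021379, chr13:48261228-48266026, plus strand) encodes an inhibitor of DNA binding that is a marker of the stem cell pool. In 4OHT it was at 25.95, 29.4 and 26.8 CPM, in MU at 25.8, 26.5 and 26.3 CPM, and in OE at 28.4, 25.2 and 22.5 CPM. The 3 groups overlapped. Relative to all genes, the log2 fold change was -0.06 in MU against 4OHT (95% interval -0.24 to 0.11, edgeR adjusted p = 0.547) and -0.11 in OE against 4OHT (-0.29 to 0.06, adjusted p = 0.264). Relative to germ cell markers, Id4 was called lower, at -0.85 in MU (edgeR adjusted p = 8.07e-07) and -0.99 in OE (adjusted p = 1.71e-07). On that scale 62.6% of all genes were called lower in MU and 67.0% in OE. The scale itself moved the median of all genes by -0.79 and -0.87.

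Eomes (ENSMUSG00000032446, chr9:118478212-118486132, plus strand) encodes a T-box factor of a small set of stem cells. It was the lowest member, with 1.32, 1.48 and 1.43 CPM in 4OHT, 1.90, 1.92 and 1.43 CPM in MU, and 1.46, 2.18 and 2.02 CPM in OE. A library of each construct group fell within the 4OHT range. The log2 fold change was 0.31 in MU (95% interval -0.14 to 0.76, edgeR adjusted p = 0.223) and 0.42 in OE (-0.03 to 0.88, adjusted p = 0.10). At this depth a change of either sign in MU lies within the interval. Relative to germ cell markers the estimates were -0.47 in MU and -0.45 in OE, again with no call.

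Lin28a (ENSMUSG00000050966, chr4:134003330-134018841, minus strand) encodes an RNA-binding protein that blocks the maturation of let-7 microRNAs. It measured 174, 175 and 165 CPM in 4OHT, 337, 345 and 341 CPM in MU, and 361, 358 and 348 CPM in OE. The groups were apart in all 3 comparisons. The log2 fold change was 0.99 in MU (SE 0.0435, edgeR adjusted p = 2.92e-10) and 1.06 in OE (SE 0.0436, adjusted p = 1.28e-10).

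Foxo1 and Lin28a had the most alike patterns of the 45 pairs of members, with a root mean square difference of 0.0539 between their gene-centred log2 CPM over the 9 libraries. Their length-scaled ratio was 0.479 ± 0.0244 in 4OHT, 0.485 ± 0.0141 in MU and 0.506 ± 0.00845 in OE (n = 3), and all groups overlapped.

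Nanos2 (ENSMUSG00000051965, chr7:18987400-18988962, plus strand) encodes an RNA-binding repressor of the male germ line that works with the CCR4-NOT deadenylase. Its 4OHT libraries held 7.75, 7.03 and 6.02 CPM, those of MU 2.94, 3.37 and 3.89 CPM, and those of OE 4.69, 4.76 and 3.66 CPM. All 4OHT libraries were higher than all others. Nanos2 had the largest fall of the 10 in MU, with a log2 fold change of -1.03 (SE 0.152, edgeR adjusted p = 4.93e-05), and of -0.67 in OE (SE 0.153, adjusted p = 0.00178).

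Nanos3 (ENSMUSG00000056155, chr8:84173731-84185217, minus strand), its paralog with a role in the survival of primordial germ cells, was also lowered. It measured 15.9, 17.5 and 14.3 CPM in 4OHT, 11.9, 13.5 and 12.6 CPM in MU, and 10.4, 11.7 and 10.05 CPM in OE. The groups were apart in the order 4OHT, MU and OE. The log2 fold change was -0.33 in MU (SE 0.0962, edgeR adjusted p = 0.00992) and -0.57 in OE (SE 0.0978, adjusted p = 0.000177). The call in MU was lost without 4OHT replicate 2 (adjusted p = 0.0704) and without MU replicate 1 (adjusted p = 0.0520). Per exonic kilobase, Nanos3 fell relative to Lin28a from a ratio of 0.401 ± 0.0309 in 4OHT to 0.161 ± 0.00808 in MU and 0.130 ± 0.00919 in OE (n = 3, exact permutation p = 0.1 each).

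**Figure D2:**
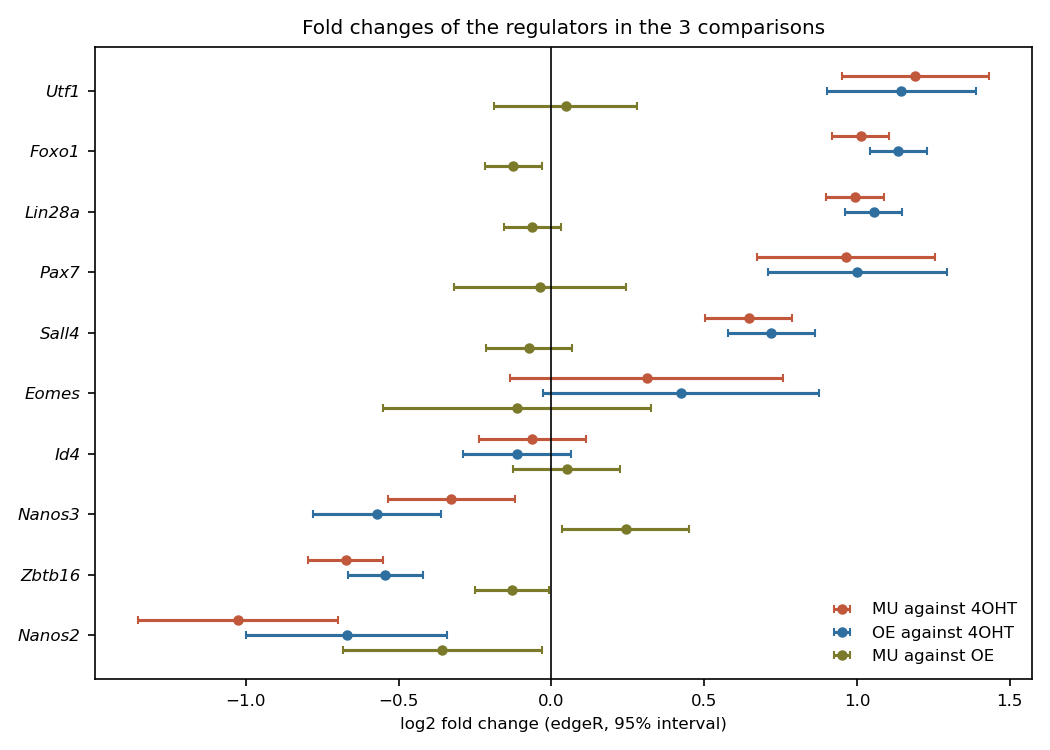
Log2 fold change (x axis) of the 10 regulators in MU against 4OHT, OE against 4OHT and MU against OE, with points for edgeR's estimate and bars for its 95% interval. Utf1 (1.19) and Nanos2 (-1.03) are the ends of MU against 4OHT, while the estimates of MU against OE run from -0.36 for Nanos2 to 0.24 for Nanos3.

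MU against OE sets the catalytically dead protein beside the wild type, as the labels were read. Prmt5 mRNA also differed between them (mean 146 CPM in MU and 1076 CPM in OE). Catalytic state and the level of Prmt5 mRNA therefore cannot be told apart here. None of the 10 members passed the adjusted threshold, against 3.17% of all genes, and the lowest adjusted p was 0.189 (edgeR, Foxo1). limma-voom also called 0. At an unadjusted p under 0.05 there were 4 (Zbtb16, Foxo1, Nanos2 and Nanos3), against 12.4% of genes. Foxo1 was 0.12 lower in MU on the log2 scale (log2 fold change -0.12, 95% interval -0.22 to -0.03). That gene alone was called by DESeq2 (adjusted p = 0.0433) and by edgeR with only the 6 libraries compared (adjusted p = 0.0180). Zbtb16 (-0.13, interval -0.25 to -0.01) and Nanos2 (-0.36, -0.68 to -0.03) were lower in MU by estimate, and Nanos3 was higher (0.24, 0.03 to 0.45). The libraries of MU and OE did not overlap for 5 members, against 25.9% of genes. MU was below OE for Zbtb16, Sall4, Foxo1 and Lin28a and above it for Nanos3. The intervals of Sall4 (-0.21 to 0.07), Lin28a (-0.15 to 0.03), Id4 (-0.12 to 0.23), Utf1 (-0.19 to 0.28), Pax7 (-0.32 to 0.25) and Eomes (-0.55 to 0.33) include 0. Between MU and OE, fibroblast markers were higher in MU (10 of 12 called) and macrophage markers lower (7 of 9 called), and their part in the members' values was not tested.

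Per exonic kilobase, Zbtb16 was the most abundant of the 10 in 4OHT, at 55.1 ± 3.70 CPM per kb, followed by Lin28a at 42.8 ± 1.29. Sall4 at 25.2 ± 2.78, Foxo1 at 20.5 ± 0.513 and Nanos3 at 17.2 ± 1.77 came next. Id4 was at 7.11 ± 0.458, Utf1 at 4.74 ± 0.672 and Nanos2 at 4.44 ± 0.555, and the libraries of the last pair overlapped. Pax7 at 0.492 ± 0.0641 and Eomes at 0.339 ± 0.0201 closed the order. In MU, Lin28a led at 85.3 ± 1.01, with Foxo1 at 41.4 ± 0.742, Sall4 at 39.4 ± 0.289 and Zbtb16 at 34.6 ± 1.02 CPM per kb. Zbtb16 was thus below Lin28a, Foxo1 and Sall4 in MU. The order in OE was the same, with Lin28a at 89.0 ± 1.64 and Zbtb16 at 37.8 ± 1.74, and there only the neighbours Nanos3 (11.6 ± 0.915) and Utf1 (10.5 ± 0.493) overlapped.

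**Figure D3:**
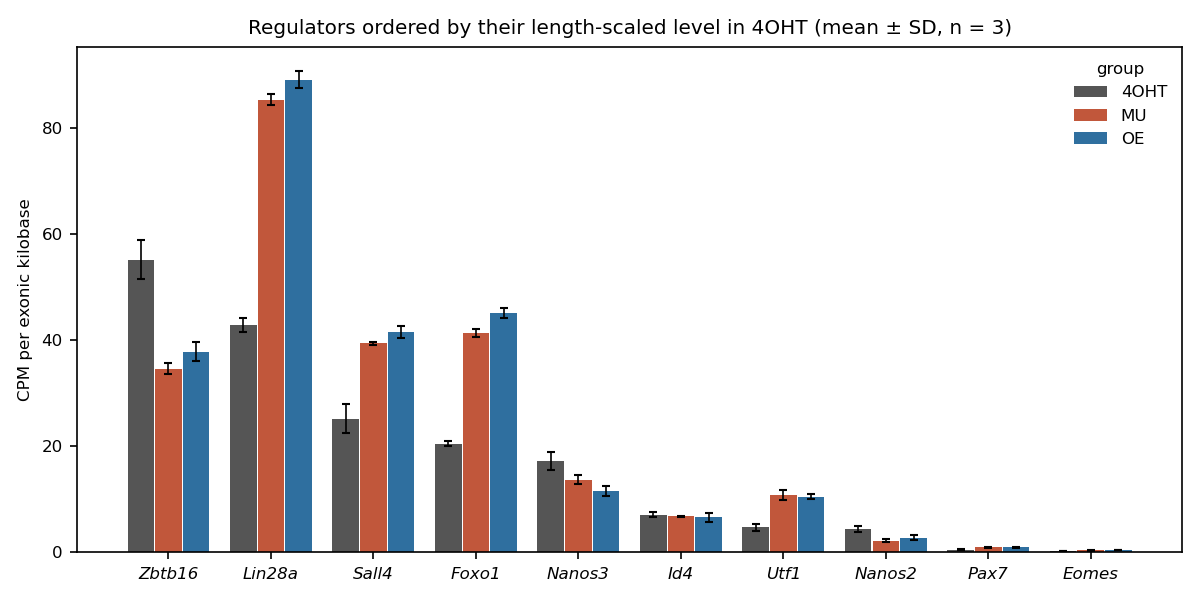
Mean CPM per exonic kilobase of the 10 regulators (bars from 0, error bars SD, n = 3) in 4OHT, MU and OE, ordered by the level in 4OHT. Zbtb16 leads in 4OHT at 55.1 and Lin28a in MU at 85.3 and OE at 89.0.

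The 10 germ cell markers, among them Ddx4, Dazl and Mael, were called higher in MU and in OE than in 4OHT in 10 of 10 cases, with median log2 fold changes of 0.80 and 0.87. The members were therefore also set relative to these markers, which moved the median of all genes by -0.79 in MU and -0.87 in OE. On that scale 6.61% of all genes were called higher and 62.6% lower in MU, and 6.14% and 67.0% in OE. Zbtb16 (-1.46 in MU, -1.42 in OE), Nanos2 (-1.81, -1.54), Nanos3 (-1.11, -1.44) and Id4 (-0.85, -0.99) were called lower. Foxo1 (0.22, 0.26) and Lin28a (0.21, 0.18) were still called higher, and Utf1 was called in MU (0.40) but not in OE (0.27). The 10 markers themselves ran from -0.28 (Tdrd5) to 0.34 (Mael) in MU and from -0.28 (Tdrd1) to 0.27 (Mael) in OE. Of these markers, 2 were called higher and 2 lower in MU, and 4 and 3 in OE. Foxo1 and Lin28a lie within that range. Pax7 (0.18, 0.13) was no longer called. Sall4 (-0.15, -0.16) and Eomes (-0.47, -0.45) changed sign and were not called. Of the 8 calls in each comparison, those of Foxo1 and Lin28a held on both scales in MU and in OE. Those of Zbtb16, Nanos2 and Nanos3 did too, but this downward shift could only lower them further. The direction of Sall4 depends on the scale.

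**Figure D4:**
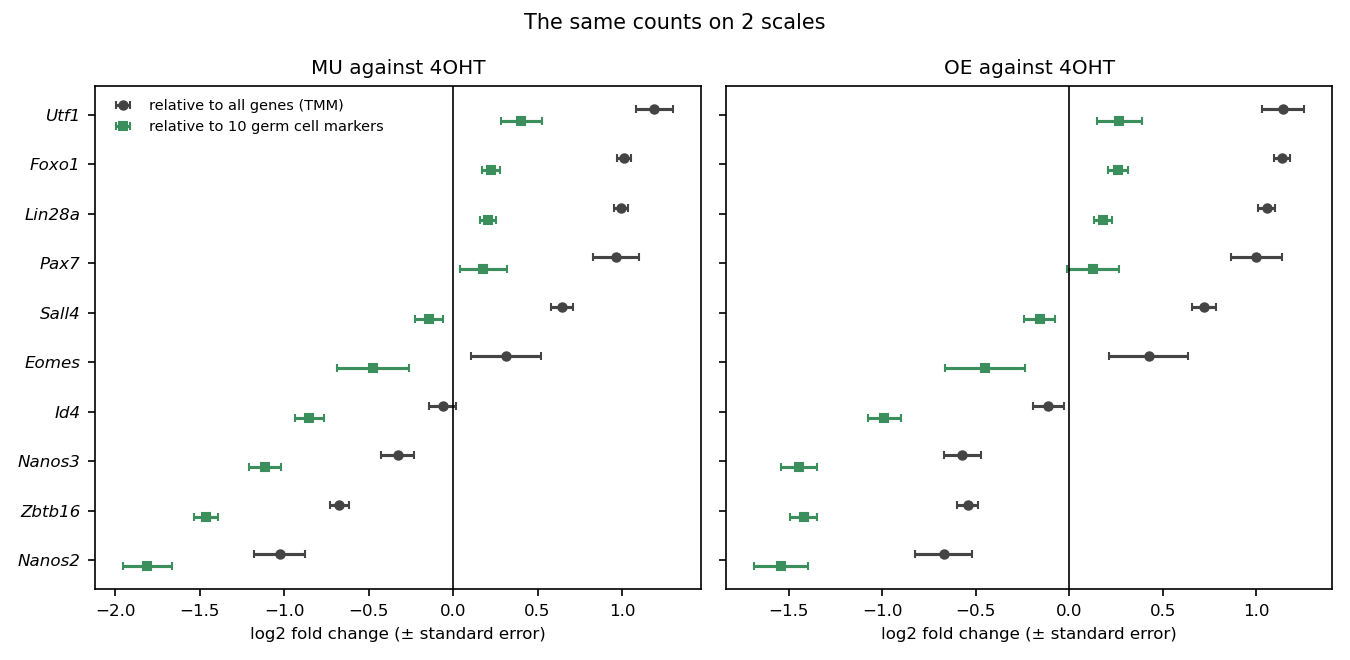
Log2 fold change (x axis, bars ± standard error) of each regulator in MU against 4OHT (left) and OE against 4OHT (right), relative to all genes (circles) and relative to 10 germ cell markers (squares). Sall4 moves from 0.65 to -0.15 in MU, whereas Zbtb16 is below 0 on both scales.

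Of all genes tested, 29.5% were called higher and 26.5% lower in MU, and 29.9% and 27.9% in OE. These shares are the background of this and the following lists relative to all genes. Of the 15 measured paralogs of the members, 5 were called higher and 5 lower in MU, and likewise in OE. Their median log2 fold changes were 0.05 and 0.06, against 0.04 and 0.02 over all genes. Relative to germ cell markers, 1 was called higher and 10 lower in MU, and 0 and 9 in OE, where 62.6% and 67.0% of all genes were called lower. Zbtb32, a relative of Zbtb16, was higher where Zbtb16 was lower, at 18.2 ± 0.936 CPM in 4OHT, 41.4 ± 0.256 CPM in MU and 37.2 ± 3.52 CPM in OE. Among the Sall genes, Sall1 rose with Sall4 (25.7 ± 3.26, 46.2 ± 2.46 and 46.2 ± 2.77 CPM). Sall2 fell (35.5 ± 3.07, 6.62 ± 0.298 and 5.88 ± 0.339 CPM), as did Sall3 (44.0 ± 4.73, 20.5 ± 0.953 and 23.3 ± 1.45 CPM). Lin28b, which shares the action of Lin28a on let-7, rose with it, at 20.2 ± 1.35, 37.0 ± 1.07 and 36.1 ± 2.40 CPM. Foxo4 rose (44.6 ± 1.89, 62.9 ± 0.576 and 66.1 ± 2.06 CPM), and Foxo3 was at 326 ± 20.1, 338 ± 8.28 and 339 ± 8.40 CPM with no call. Foxo6 was not called either, at 19.3 ± 3.93, 21.8 ± 1.07 and 23.8 ± 3.51 CPM. Nanos1 was called higher (log2 fold change 0.24 in MU, edgeR adjusted p = 0.0086, and 0.19 in OE, adjusted p = 0.032). On the scale of germ cell markers, Foxo4 (-0.29 in MU, -0.31 in OE), Foxo6 (-0.61, -0.57), Foxo3 (-0.74, -0.82) and Nanos1 (-0.55, -0.69) were called lower, Sall1 (0.05, -0.03) and Lin28b (0.09, -0.04) were not called, and Zbtb32 was called in MU (0.40) but not in OE (0.16).

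Id1, Id2 and Id3 were called in all 3 comparisons and Id4 in none relative to all genes, and the differences between the genes were not tested. They encode the same kind of inhibitor and are widely expressed, in fibroblasts too. Id3 fell from 113 ± 4.48 CPM in 4OHT to 34.7 ± 1.96 CPM in MU and 25.8 ± 1.48 CPM in OE. Id1 was at 56.3 ± 3.19, 39.2 ± 0.194 and 29.8 ± 1.17 CPM, and Id2 at 19.9 ± 0.707, 10.4 ± 0.715 and 6.69 ± 0.105 CPM. All 3 were higher in MU than in OE, with log2 fold changes of 0.40 for Id1 (edgeR adjusted p = 0.0013), 0.64 for Id2 (adjusted p = 0.00047) and 0.43 for Id3 (adjusted p = 0.001), while Id4 was at 0.05. The sum of the fibroblast markers moved with these genes in every comparison, although Dcn was called higher in MU against 4OHT. The part of these markers was not tested. Pax3, Tbr1 and Tbx21 were at or under 1 CPM in every library.

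Of 18 partners and cofactors of the members, 6 were called higher and 9 lower in MU, and 7 and 8 in OE, with medians of -0.13 and -0.09. Relative to germ cell markers, 0 were called higher and 17 lower in each, against 62.6% of all genes called lower in MU and 67.0% in OE. The E proteins, which ID4 binds, included Tcf4 with a fall from 91.9 ± 3.26 CPM to 35.9 ± 1.07 in MU and 32.0 ± 2.42 in OE. Tcf12 fell from 169 ± 8.90 CPM to 115 ± 1.75 and 117 ± 5.37. The other E protein gene of the list, Tcf3, was not called, at 365.8 ± 51.5, 337 ± 8.25 and 350 ± 5.82 CPM. Dnd1, an RNA-binding partner of NANOS2, moved the other way to Nanos2, from 58.6 ± 2.61 to 100.2 ± 1.82 and 109.5 ± 5.04 CPM. Dnd1 is also on the list of germ cell markers, and relative to that list it was at -0.01 in MU and 0.03 in OE with no call.

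The 13 genes of the PI3K-AKT-FOXO pathway were called higher in 4 and lower in 5 cases in MU, and equally in OE, with medians of -0.09 and -0.07. Relative to germ cell markers, 1 was called higher (Pik3cb) and 11 lower in each, against 62.6% of all genes called lower in MU and 67.0% in OE. Akt1, the kinase that phosphorylates FOXO1, was at 302 ± 33.4 CPM in 4OHT, 167 ± 3.80 CPM in MU and 166 ± 3.86 CPM in OE. Pik3r1, a regulatory PI3K subunit, fell from 71.9 ± 3.54 CPM to 38.8 ± 0.620 and 37.9 ± 1.47. The catalytic subunit gene Pik3cb rose from 26.4 ± 2.78 CPM to 54.5 ± 2.2 and 58.0 ± 1.45, and Sgk1, a kinase related to AKT, from 99.6 ± 2.65 CPM to 169 ± 2.04 and 173 ± 4.94. On the scale of germ cell markers Sgk1 was at -0.02 and -0.08 and was not called.

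In the LIN28-let-7 pathway, 4 of 16 genes were called higher and 8 lower in MU and in OE, with medians of -0.16 and -0.13. The 4 called higher in each were Lin28b, Dicer1, Zcchc11 and Arid3b (0.59 in MU, 0.61 in OE), and Mycn was not called. Relative to germ cell markers, 0 were called higher and 15 lower in each, against the same 62.6% and 67.0% of all genes. The 4 largest changes were in genes that let-7 is known to target and that are not restricted to germ cells. Hmga2, a chromatin protein, fell from 424 ± 32.3 CPM to 64.0 ± 1.90 in MU and 49.9 ± 1.92 in OE. Ccnd1, a D-type cyclin, fell from 613 ± 12.3 CPM to 93.9 ± 1.95 and 78.4 ± 2.81. Hmga1 fell from 442 ± 44.1 CPM to 139 ± 5.18 and 147 ± 6.61, and Ccnd2 from 592 ± 28.7 CPM to 219.6 ± 2.42 and 247 ± 8.28. They fell where Lin28a rose and where the sum of fibroblast markers fell, and the part of either was not tested.

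Of 25 other genes of undifferentiated spermatogonia, 8 were called higher and 13 lower in MU, and likewise in OE, with medians of -0.25 and -0.24 (3 and 18 relative to germ cell markers, against 6.61% and 62.6% of all genes in MU and 6.14% and 67.0% in OE). Etv5, a factor downstream of GDNF, fell from 126 ± 6.92 CPM to 13.8 ± 0.345 in MU and 12.1 ± 1.17 in OE, and the GDNF receptor gene Gfra1 from 120.4 ± 4.09 CPM to 27.5 ± 0.786 and 28.2 ± 0.717. Neurog3 (3.13 ± 0.547, 10.9 ± 0.240 and 11.8 ± 0.0269 CPM) and Sox3 (56.6 ± 11.8, 169 ± 2.89 and 174 ± 15.9 CPM), both of progenitors, rose on either scale. Of 17 genes of differentiating spermatogonia, 11 were called higher and 3 (Ccnd2, Dnmt3a and Prdm1) lower in each comparison (medians 0.57 and 0.81). Of all genes, 29.5% and 26.5% were so called in MU, and 29.9% and 27.9% in OE. The medians of the germ cell markers were 0.80 and 0.87. Kit, the receptor that marks differentiation, went from 16.3 ± 1.34 CPM to 81.1 ± 2.33 and 81.7 ± 1.71, Stra8 from 10.1 ± 0.941 CPM to 35.8 ± 2.37 and 35.8 ± 0.901, and Sycp3 from 35.6 ± 6.51 CPM to 97.7 ± 3.83 and 105 ± 2.05. On the scale of germ cell markers, 7 of the 17 were called higher and 7 lower in MU (6 and 8 in OE). On that scale 6.61% and 62.6% of all genes were so called in MU, and 6.14% and 67.0% in OE. Kit (1.53 in MU, 1.45 in OE), Stra8 (1.03, 0.95) and Sycp3 (0.67, 0.69) stayed above 0 on the log2 scale. Ccnd2 (-2.22, -2.13), Dnmt3a (-1.38, -1.35) and Prdm1 (-1.25, -1.37) were among those called lower. Dmrt1, called higher relative to all genes (0.53, 0.61), was called lower relative to germ cell markers (-0.26, -0.27).

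**Figure D5:**
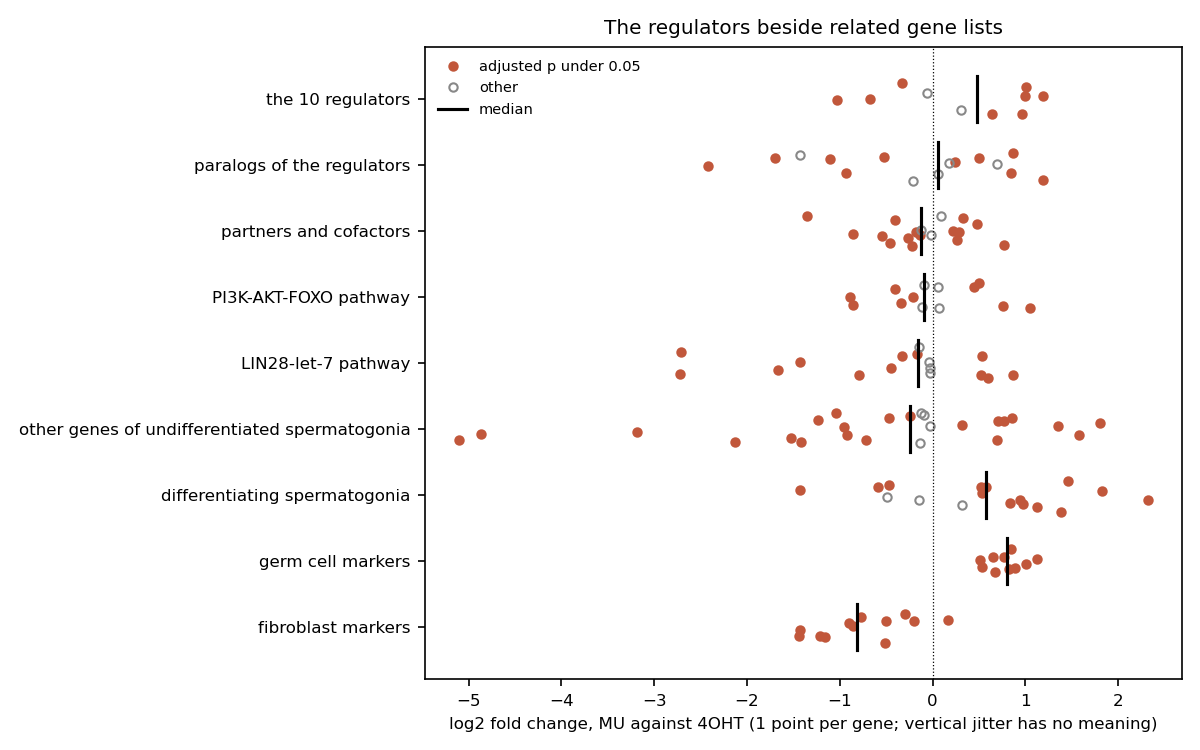
Log2 fold change in MU against 4OHT (x axis, relative to all genes) of the 10 regulators and of 8 related lists, with 1 point per gene, filled where the adjusted p was under 0.05, and a line at each median. The regulators lie on both sides of 0, while the 10 germ cell markers lie above it and 11 of 12 fibroblast markers below.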

How the data were processed

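RNA-seq of 9 libraries (4OHT, MU and OE, 3 each) was analysed. According to the submitters' notes and the methods, the authors trimmed reads with Trimmomatic 0.39, aligned them to GRCm38 with HISAT2 2.2.1 and quantified them with StringTie 2.2.1. The counts deposited by the authors are whole numbers for each gene and were not scaled between libraries. How these were made whole, the strand setting and the treatment of multiply aligned reads are not given in the sources used here. Values of 4 were more frequent than 3 or 5, so a read pair was taken as about 4 counts, and a floor of 12 counts is 0.0328 to 0.152 CPM (counting error only).

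Genes were filtered (filterByExpr, minimum count 10, total 15) and normalized by TMM, and 22452 were fitted with edgeR 4.0.16 (quasi-likelihood, group only, all 9 libraries) in R 4.3.3, with Benjamini-Hochberg adjustment over all of them. The SE is the absolute log2 fold change divided by the square root of F. Exact permutation tests were two-sided. Alternatives used DESeq2 1.42.0, limma 3.58.1, other filters and scales, and left out each library. The tests were checked on simulated data. Replicates differed by more than sampling noise. Exonic lengths and coordinates came from GENCODE vM21, and promoter windows from RefSeq. The members and gene lists were chosen with earlier results of these data known. The rule allowed all members and paralogs, Prmt5, and up to 4 genes per list past the threshold in MU against 4OHT with the largest absolute change and a mean of at least 1 CPM, the genes that overlap or neighbour a member, and the 3 genes of the most alike pattern (mean of at least 5 CPM). Not all of these are named, and the marker, neighbour and pattern genes given were picked among them after values were seen. Motifs, ratios, Tcf3, Dmrt1, Dnmt3a, Prdm1, Dicer1, Zcchc11, Arid3b, Mycn and other markers were named after values were seen. Itgam was left out because its symbol belongs to more than 1 gene. A gene that the rule names among the partners is not reported here.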

Additional observations from a re-analysis of the deposited data

How the results depend on the processing

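Both counts of members called against 4OHT stayed at 8 under DESeq2, DESeq2 size factors, limma-voom, either filter, division of counts by 4 and the 6 libraries compared. Leaving out a library gave 7 to 8 members in MU against 4OHT, 8 to 9 in OE against 4OHT (Eomes was added without OE replicate 1, log2 fold change 0.59, adjusted p = 0.0316) and 0 to 0 in MU against OE. Scaled to germ cell markers, 7, 6 and 0 members were called, Sall4 (-0.145 in MU, -0.158 in OE) and Eomes (-0.475, -0.450) turned negative against 4OHT, and Sall4 (0.013), Pax7 (0.051) and Lin28a (0.026) turned positive in MU against OE. On that scale 9.55% of calls in MU against 4OHT were higher (52.7% by TMM), 8.40% in OE against 4OHT (51.8%) and 83.5% in MU against OE (66.7%). In MU against OE, DESeq2 and the fit of 6 libraries called 1 member each (Foxo1), and over all genes 1140 and 1565 in place of 712 (52.5% higher in the latter). Leaving out a library gave 400.0 to 1099 genes. Values near 0 changed sign when a library was left out. Id4 in MU against 4OHT ranged from -0.112 to 0.00068 (above 0 without 4OHT replicate 2). In MU against OE, Pax7 ranged from -0.111 to 0.0199 (above 0 without MU replicate 3 or OE replicate 1; 0.00428 with no filter), Utf1 from -0.0233 to 0.107 (below 0 without MU replicate 1), Eomes from -0.262 to 0.0130 (above 0 without MU replicate 3) and Id4 from -0.0291 to 0.139 (below 0 without OE replicate 3). The cause was not tested. With the replicate number as a block, 8, 8 and 0 members and 12443, 12807 and 674 genes were called. Libraries of the same number deviated together little (r from -0.062 to 0.130, 1 of 9 pairs over 0.1). A library was closest to its own number, among the 3 of another group, in 9 of 18 cases. These values do not settle whether the libraries are paired. The numbers were not taken as pairs because they are not said to mark a shared culture. Depth limits Eomes most, with counts from 100, or about 25 read pairs.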

Other observations

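Genes whose pattern over the 9 libraries was most like that of a member were found among 11741 protein-coding genes by the root mean square difference of gene-centred log2 CPM. Prelid3a was closest to Foxo1 (0.0200), followed by Pramef12 (0.0362) and Mcm8 (0.0382), a helicase of homologous recombination. Itpr1, an intracellular calcium channel, was closest to Sall4 (0.0278), Klhl12 to Lin28a (0.0302) and Optn, an autophagy receptor, to Zbtb16 (0.0362). The least matched was Nanos2, whose nearest gene was Mtpn at 0.145. Optn was at 18.8 CPM in 4OHT, 11.9 CPM in MU and 12.7 CPM in OE, and Nxf2, an mRNA export factor near Lin28a in pattern (0.0390), was at 196, 377 and 399.9 CPM.

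The nearest protein-coding gene on each side of the members gave 20 neighbours, of which 19 were tested and 12 were called in MU against 4OHT (background 56.0%). Beside a called member there were 9 of these, and 6 of the 9 moved in the member's direction, in OE as in MU. Dhdds, 2412 bases from Lin28a, was at 57.6 CPM in 4OHT, 98.2 CPM in MU and 97.3 CPM in OE. Kndc1, 2252 bases from Utf1, was at 0.331, 1.48 and 1.07 CPM, and Mypop, 2283 bases from Nanos2, at 30.0, 22.0 and 23.3 CPM. Nanos3 and its neighbour 4930432K21Rik, 1141 bases away on the other strand, went opposite ways (13.7, 19.3 and 19.1 CPM for the latter).

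Several members share exonic bases with a gene on the opposite strand, whose reads cannot be told apart without a strand setting. Nanos2 shares 766 bases with Gm45058, which was at 0 in every library, and Sall4 shares 526 with Gm14261, at 0.389, 0.463 and 0.571 CPM in 4OHT, MU and OE. Lin28a shares 234 with Gm13061 (0.657, 0.420 and 0.106 CPM), and Foxo1 shares 674 with Gm20402 (0.0391, 0.0415 and 0.0534 CPM). Id4 shares 171 with Gm49291 and 82 with A330033J07Rik, and Eomes shares 118 with Gm33460, all under 1 CPM on average in each group. Per exonic kilobase, the ratio of Nanos3 to Nanos2 was 3.90 ± 0.384 in 4OHT, 6.36 ± 0.784 in MU and 4.18 ± 0.448 in OE (n = 3), with MU above both other groups (exact permutation p = 0.1 each).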
